A study of Mus musculus with 2 samples.

Results

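The genes described here are the matrix metalloproteases (MMPs), the ADAM and ADAMTS proteases and the tissue inhibitors of metalloproteases (TIMPs) of C2C12 cells with and without knockdown of the long non-coding RNA *Malat1*. Members were taken by symbol from the deposited table, as Mmp, Timp, Adam or Adamts followed by a number, and 78 of its 22095 genes matched, namely 23 MMPs, 4 TIMPs, 32 ADAMs and 19 ADAMTS genes. Of these, 29 had a mean over both libraries of at least 1 FPKM, 25 lay under it and 24 were listed at 0 in both. FPKM are fragments per kilobase of a transcript after correction for library depth, so levels of genes can be compared. C2C12 is an established line of mouse myoblasts, and both groups were moved from growth medium to a differentiation medium (DM) low in serum, in which such cells fuse into myotubes. The siNC cells received a negative control oligo and the si*Malat1* cells an siRNA against *Malat1*, by the paper at 150 nM, and the cells spent 2 days in DM. No concentration was found for siNC, and the labels give no day. Polyadenylated RNA of each was sequenced as 1 library, so that no difference can be set against a spread between cultures and none carries a p-value. The target, *Malat1*, stood at 41.8 FPKM with siNC and was lower, at 34.2 FPKM, with si*Malat1*, a log2 ratio of -0.29. Throughout, FPKM are given for siNC first and for si*Malat1* second.

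MMPs are zinc-dependent proteases that cut collagens and other proteins of the extracellular matrix. Most are secreted as inactive precursors, a few are anchored in the cell membrane, and TIMPs bind and block their active site. ADAMs sit in the membrane and release the outer parts of receptors, ligands and adhesion molecules, while ADAMTS enzymes are secreted and cut proteoglycans or trim procollagens. In muscle these enzymes open the matrix for migrating and fusing myoblasts, and the ADAMs known as meltrins were first found in myogenic cells.

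Like most genes, the protease and inhibitor genes differed little between the libraries. Of the 29 expressed members (mean FPKM of 1 or more), 0 reached a ratio of 1.5 in either direction after 0.1 FPKM was added to each value. Among all 11099 genes with such a mean and FPKM above 0 in both libraries, 2.29% were higher and 1.75% lower in si*Malat1* by at least that ratio, 4.04% in all. A count of 0 of 29 is near these shares and does not set the members apart. A ratio of 2 was likewise reached by 0 members, beside 0.721% of all genes on the higher and 0.189% on the lower side, 0.91% in all. Log2 ratios are of FPKM plus 0.1, and in bulk RNA fewer cells of a type and less RNA per cell cannot be told apart. The widest difference of an expressed member was that of *Adam8*, at 3.08 and 2.33 FPKM, a log2 ratio of -0.39. Among expressed members the widest in the other direction was that of *Adamts12*, at 1.48 and 1.91 FPKM, a log2 ratio of 0.35. The larger value was at least 25% above the smaller one in 1 expressed member on the higher side, *Adamts12*, and in 2 on the lower, *Adam8* and *Mmp28*. This stands beside 6.5% and 8.43% of all genes, 14.9% in all. The median log2 ratio of the members was -0.07 and that of all genes -0.04, and 19 of the 29 members (65.5%) lay on the lower side, beside 57.4% of all genes. By class the median was -0.06 for 8 MMPs, -0.09 for 7 ADAMs, 0.00 for 11 ADAMTS genes and 0.01 for 3 TIMPs, and the last of these turned to -0.05 when both libraries were scaled to the same FPKM sum. The direction of 8 members, *Timp1*, *Timp2*, *Mmp11*, *Mmp19*, *Mmp23*, *Adam12*, *Adamts5* and *Adamts6*, turned with the scaling between the libraries, whereas 16 were lower and 5 higher under each of the 4 scalings tried. The share of all genes that kept their direction under each scaling was not computed.

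**Figure D1:**
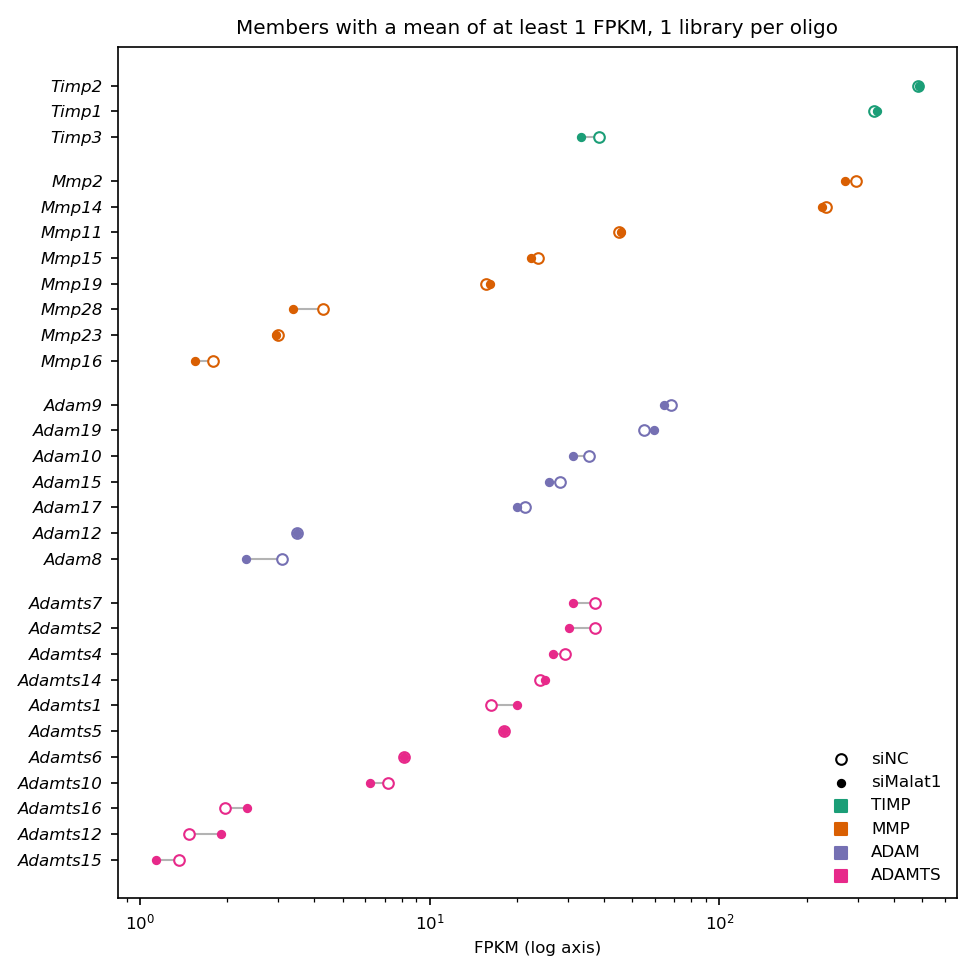
FPKM of the 29 expressed members on a log axis, with open circles for the siNC library and filled circles for the si*Malat1* library, grouped by class. The circles of most genes nearly coincide, and the widest gap is that of *Adam8* (3.08 and 2.33 FPKM).

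Among all members, the inhibitor genes *Timp2* and *Timp1* had the most FPKM. *Timp2*, which blocks MMPs and also takes part in the activation of the gelatinase Mmp2, stood at 486 and 488 FPKM and ranked 122 among all genes by mean FPKM. *Timp1*, a soluble inhibitor of most secreted MMPs, stood at 342 and 349 FPKM. *Timp3*, which binds to the matrix and also blocks several ADAMs, stood at 38.5 and 33.2 FPKM, a log2 ratio of -0.21. *Timp4* was low, at 0.349 and 0.437 FPKM. *Timp1*, *Timp3* and *Timp4* shared their loci in the table with the synapsin genes *Syn1*, *Syn3* and *Syn2*, and *Timp2* with *Ddc8*, so their FPKM are less certain. The highest of these 4 neighbors was *Syn1* (6.79 and 8.24 FPKM), and *Timp1* shared its locus also with the kinase gene *Araf* (45.4 and 52.7 FPKM). Summed TIMP FPKM were 867 and 871, of which *Timp2* made up 56.1% in both libraries.

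Among the MMPs, a pair of genes held most of the FPKM. *Mmp2*, a gelatinase that cuts denatured collagen and type IV collagen, stood at 297 and 271 FPKM, a log2 ratio of -0.13. *Mmp14*, the membrane-type protease that activates the Mmp2 precursor on the cell surface, stood at 233 and 227 FPKM, a log2 ratio of -0.04. Together these genes made up 84.9% of the summed MMP FPKM with siNC and 84.3% with si*Malat1*, and the genes of the known activation complex, *Mmp2*, *Mmp14* and *Timp2*, were thus all among the most abundant members. *Mmp11*, whose product is cut to its active form inside the cell by furin, stood at 45.0 and 45.6 FPKM. The membrane-type genes *Mmp15* (23.7 and 22.4 FPKM) and *Mmp16* (1.79 and 1.54 FPKM) were lower in level than *Mmp14*. *Mmp19* stood at 15.6 and 16.1 FPKM and shares its locus with *1110012D08Rik* (14.3 and 12.1 FPKM), *Mmp23* stood at 2.98 and 2.94 FPKM, and *Mmp28*, also called epilysin, at 4.27 and 3.38 FPKM with a log2 ratio of -0.33. Summed TIMP over summed MMP FPKM came to 1.39 and 1.47, and *Timp2* over *Mmp2* to 1.64 and 1.80.

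Of 32 ADAM genes, 7 had a mean of 1 FPKM or more. The meltrins of myogenic cells were unequal in level, with *Adam9* (meltrin gamma) at 67.9 and 64.5 FPKM, *Adam19* (meltrin beta) at 54.9 and 59.5 FPKM, and *Adam12* (meltrin alpha) at 3.47 FPKM in both. Their log2 ratios were -0.07, 0.12 and 0.00, so that *Adam19* was the 1 ADAM of 7 on the higher side. *Adam10*, the protease that cuts Notch receptors after ligand binding, stood at 35.5 and 31.3 FPKM, a log2 ratio of -0.18. *Adam17*, which releases tumor necrosis factor and ligands of the epidermal growth factor receptor, stood at 21.3 and 19.96 FPKM and shares its locus with *Iah1* (29.2 and 32.4 FPKM). *Adam10* over *Adam17* came to 1.67 and 1.57. *Adam15*, whose disintegrin domain binds integrins, stood at 28.2 and 25.9 FPKM, and *Adam8*, best known from leukocytes, at 3.08 and 2.33 FPKM. Of the remaining ADAMs, 25 lay under 1 FPKM, 14 of them listed at 0 in both libraries, among them *Adam2* and *Adam3*, proteins of the mouse sperm surface. Sperm-lineage markers were likewise near 0, with 8 of 8 under 1 FPKM and sums of 0.0121 and 0.127 FPKM, and *Odf1* and *Prm1* were the highest.

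ADAMTS genes lay on both sides of 0. Of 11 expressed ADAMTS genes, 5 were on the higher and 6 on the lower side, with a median log2 ratio of 0.00 whose sign turned with the scaling. *Adamts2*, which removes the amino-terminal propeptide of fibrillar procollagens, stood at 37.3 and 30.3 FPKM (log2 ratio -0.30). Its relative *Adamts14* stood at 24.0 and 25.1 FPKM (0.06), and the other procollagen trimming gene, *Adamts3*, at 0.0163 and 0.0177 FPKM. *Adamts7*, which can cut cartilage oligomeric matrix protein, stood at 37.1 and 31.3 FPKM (-0.24). Among the enzymes that cut versican and aggrecan, *Adamts1* stood at 16.3 and 19.9 FPKM (0.29), *Adamts4* at 29.2 and 26.6 FPKM (-0.13), *Adamts5* at 18.1 FPKM in both (0.00) and *Adamts15* at 1.36 and 1.13 FPKM (-0.25). *Adamts1* and *Adamts5* are neighbors on chromosome 16 of mm9, *Adamts1* from 85794073 to 85803360 and *Adamts5* from 85858402 to 85901370. Of this pair, *Adamts1* differed between the libraries by a ratio of 1.23 and *Adamts5* by 1.00. *Adamts6* (8.18 and 8.16 FPKM), *Adamts10* (7.19 and 6.20 FPKM), whose product associates with fibrillin microfibrils, *Adamts16* (1.96 and 2.34 FPKM) and *Adamts12* complete the set.

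**Figure D2:**
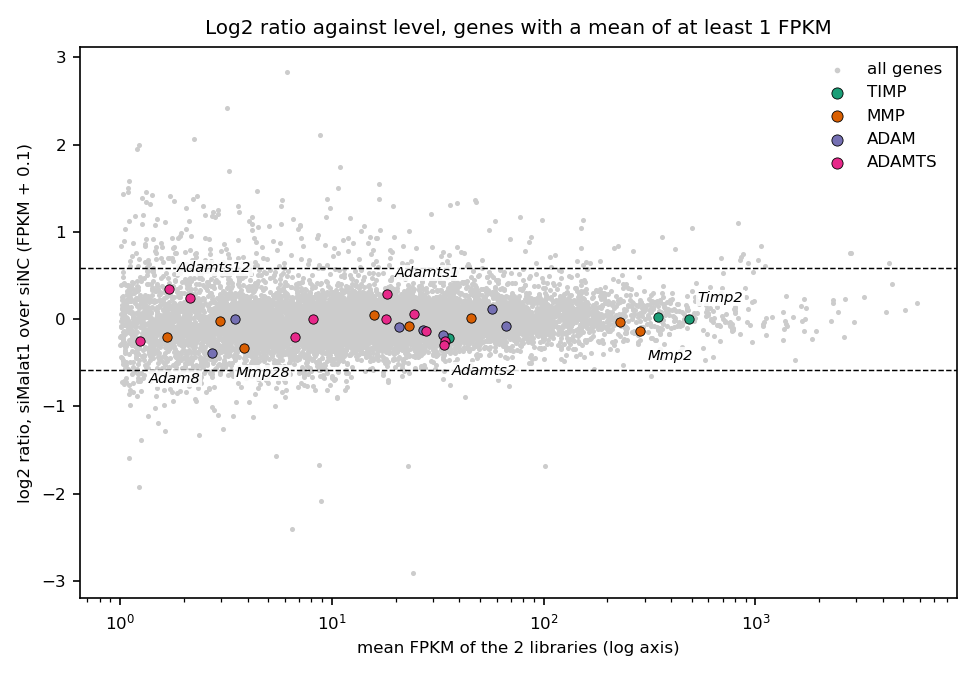
Log2 ratio of si*Malat1* over siNC after adding 0.1 FPKM, against the mean FPKM of both libraries on a log axis, with gray points for all 11099 genes and colored points for the 29 members. Dashed lines mark a ratio of 1.5 in either direction, and all members lie between them, from -0.39 (*Adam8*) to 0.35 (*Adamts12*).

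Log2 ratios scatter most among genes under 5 FPKM in these libraries, so each member was also set beside genes of like level. Of 2533 genes with a mean of 1 to 5 FPKM, the 5th and 95th percentiles of the log2 ratio were -0.56 and 0.59, and 0 of 8 members lay outside them. The same percentiles were -0.38 and 0.30 for 4215 genes of 5 to 20 FPKM, with 0 of 5 members outside, and *Adamts1* (0.29) came closest to the upper bound. For 3472 genes of 20 to 100 FPKM they were -0.31 and 0.32, with 0 of 12 members outside, and *Adamts2* came closest to the lower bound. The target *Malat1*, at -0.29, lay inside this range as well, so the range does not set the knockdown itself apart. By the paper's account, RT-qPCR also found *Malat1* knocked down in the samples that were sequenced. For 879 genes above 100 FPKM they were -0.26 and 0.43, with 0 of 4 members outside. These ranges describe genes within 1 pair of libraries and are no measure of error between cultures. FPKM hold no counts, so no interval for counting error could be given.

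Many of the low members lie side by side. A run of 10 MMP genes lies on chromosome 9 of mm9 from 7272514 to 7699416, a span of 427 kb that holds the collagenases *Mmp13*, *Mmp8*, *Mmp1a* and *Mmp1b*, the stromelysins *Mmp3* and *Mmp10*, the matrilysin *Mmp7*, the macrophage elastase *Mmp12*, the enamel protease *Mmp20* and *Mmp27*. All 10 lay under 1 FPKM, 6 were listed at 0 in both libraries, and the highest was *Mmp10* at 0.490 and 0.343 FPKM. Their summed FPKM were 0.614 and 0.475, against 297 and 271 FPKM of the single gelatinase gene *Mmp2*, which lies on chromosome 8 from 95351227 to 95377319. The other gelatinase gene, *Mmp9*, stood at 0.216 and 0.0783 FPKM. On chromosome 8 from 25712718 to 26127394, the abundant *Adam9* stood beside *Adam18* and *Adam3*, both listed at 0, *Adam5* (0.497 and 0.334 FPKM) and *Adam32* (0.0985 and 0.163 FPKM).

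RefSeq promoter windows of GRCm38.p6, from 250 bases before to 50 bases after an annotated start, were found for 48 of the 78 members, with 53 starts. They were searched on both strands for the AP-1 letters TGAGTCA or TGACTCA, which read as each other on the opposite strand, for the TATA letters TATAAA and for the E-box letters CAGCTG, the kind of site that MyoD can bind. Genes of the chromosome 9 run are related by duplication, so their windows are not independent. AP-1 letters were in those of 7 of the 10 genes and TATA letters in those of 9. The shares were 5.95% and 15.7% of all genes in the promoter table, and 6.74% and 21.2% of genes under 1 FPKM. Both were in 0.941% of all 32851 windows of this length there and in 1.43% of those of genes under 1 FPKM. Of the 12 windows of the run, 7 (58.3%) held both. Shown here are 5 of these windows from 100 bases before to 50 bases after the start, chosen after the values were seen to show genes listed at 0 or under 0.5 FPKM, with AP-1 and TATA letters in capitals.
*Mmp13*, chr9:7272414-7272563, plus strand: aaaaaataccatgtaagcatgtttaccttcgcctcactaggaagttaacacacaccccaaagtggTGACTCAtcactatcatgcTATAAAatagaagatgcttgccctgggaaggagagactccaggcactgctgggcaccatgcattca
*Mmp3*, chr9:7445722-7445871, plus strand: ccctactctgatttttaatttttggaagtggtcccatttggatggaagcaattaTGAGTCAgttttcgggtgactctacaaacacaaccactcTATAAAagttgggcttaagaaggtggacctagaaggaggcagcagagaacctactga
*Mmp10*, chr9:7502242-7502391, plus strand: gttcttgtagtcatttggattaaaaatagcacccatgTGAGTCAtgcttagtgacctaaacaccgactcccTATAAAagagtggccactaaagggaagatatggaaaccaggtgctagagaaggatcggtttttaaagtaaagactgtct
*Mmp1a*, chr9:7464041-7464190, plus strand: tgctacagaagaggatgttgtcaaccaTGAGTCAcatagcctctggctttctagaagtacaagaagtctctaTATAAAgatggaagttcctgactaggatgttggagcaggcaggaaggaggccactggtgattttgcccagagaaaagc
*Mmp1b*, chr9:7387977-7388126, minus strand: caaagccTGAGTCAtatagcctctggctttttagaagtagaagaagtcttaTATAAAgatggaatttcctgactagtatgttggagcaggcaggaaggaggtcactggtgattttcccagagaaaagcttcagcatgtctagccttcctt

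In these windows the AP-1 letters begin at position -35 from the start in *Mmp13*, -46 in *Mmp3*, -63 in *Mmp10*, -73 in *Mmp1a* and -93 in *Mmp1b*. The TATA letters lie downstream of them, at -16, -7, -29, -28 and -49. *Mmp1a* and *Mmp1b* were both listed at 0. A match of letters describes the window and does not show that a factor binds there.

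Windows were at hand for 17 of the expressed members. AP-1 letters were found in 1 of them, at 1 of the 3 starts of *Adam19*, and TATA letters in 1, *Adamts1*, and 0 had both. For 1 of 17 genes that is 5.88%, beside 4.38% with AP-1 and 8.64% with TATA letters among all expressed genes of the table with a window. Their windows held a median of 22 CG dinucleotides, taking the highest start of each gene, against 2 for the 31 members under 1 FPKM. The medians were 23 for all genes of the table with a mean of at least 1 FPKM and 5 for those under it, so the members followed the table at large in this. E-box letters were in the windows of 5 of the 17 genes, *Timp2*, *Adam17*, *Adam19*, *Adamts2* and *Adamts12*, and of 4 of the 31, which is 29.4% and 12.9% of genes, beside 18.3% of all genes in the promoter table. The following windows of abundant members span the same 150 bases around the start, with CG dinucleotides in capitals, to be read beside those of the low genes.
*Timp2*, chr11:118355362-118355511, minus strand: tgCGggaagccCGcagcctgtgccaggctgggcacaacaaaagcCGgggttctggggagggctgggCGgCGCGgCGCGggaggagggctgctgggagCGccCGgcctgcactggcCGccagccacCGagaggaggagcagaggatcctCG
*Timp1*, chrX:20870066-20870215, plus strand: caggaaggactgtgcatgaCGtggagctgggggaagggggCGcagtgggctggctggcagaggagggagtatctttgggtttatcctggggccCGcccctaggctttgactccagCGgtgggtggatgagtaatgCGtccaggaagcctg
*Mmp14*, chr14:54431498-54431647, plus strand: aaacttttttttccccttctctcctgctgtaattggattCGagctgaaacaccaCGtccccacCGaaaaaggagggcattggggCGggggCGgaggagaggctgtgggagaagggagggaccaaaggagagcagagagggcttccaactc
*Mmp11*, chr10:75932453-75932602, minus strand: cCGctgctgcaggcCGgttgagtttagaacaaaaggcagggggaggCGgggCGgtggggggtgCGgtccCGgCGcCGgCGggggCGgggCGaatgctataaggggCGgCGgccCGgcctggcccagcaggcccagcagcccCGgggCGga
*Adam10*, chr9:70678882-70679031, plus strand: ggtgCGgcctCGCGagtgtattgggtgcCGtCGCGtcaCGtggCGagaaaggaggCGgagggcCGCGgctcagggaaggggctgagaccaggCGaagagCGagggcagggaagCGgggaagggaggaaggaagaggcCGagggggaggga
*Adam17*, chr12:21373583-21373732, minus strand: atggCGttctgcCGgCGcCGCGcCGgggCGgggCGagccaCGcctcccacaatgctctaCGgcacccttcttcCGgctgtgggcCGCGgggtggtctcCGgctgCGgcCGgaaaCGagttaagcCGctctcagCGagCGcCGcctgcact

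The stretches of *Adam17* and *Mmp11* hold 21 and 16 CG dinucleotides, those of *Adam10* and *Timp2* 15 and 13, and those of *Timp1* and *Mmp14* 5 each, although *Timp1* and *Mmp14* had more FPKM than *Adam10*, *Adam17* and *Mmp11*. A window rich in CG was not by itself the mark of an abundant member, since *Mmp24* (0.0304 and 0.0466 FPKM), *Adamts3* and *Adamts20* (listed at 0) had 44, 41 and 41 CG dinucleotides in their 300 bases. *Mmp24* shares its locus with *BC029722* (45.2 and 48.0 FPKM), so its FPKM are less certain. Windows of *Mmp2* and *Adam9* were not analysed here.

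**Figure D3:**
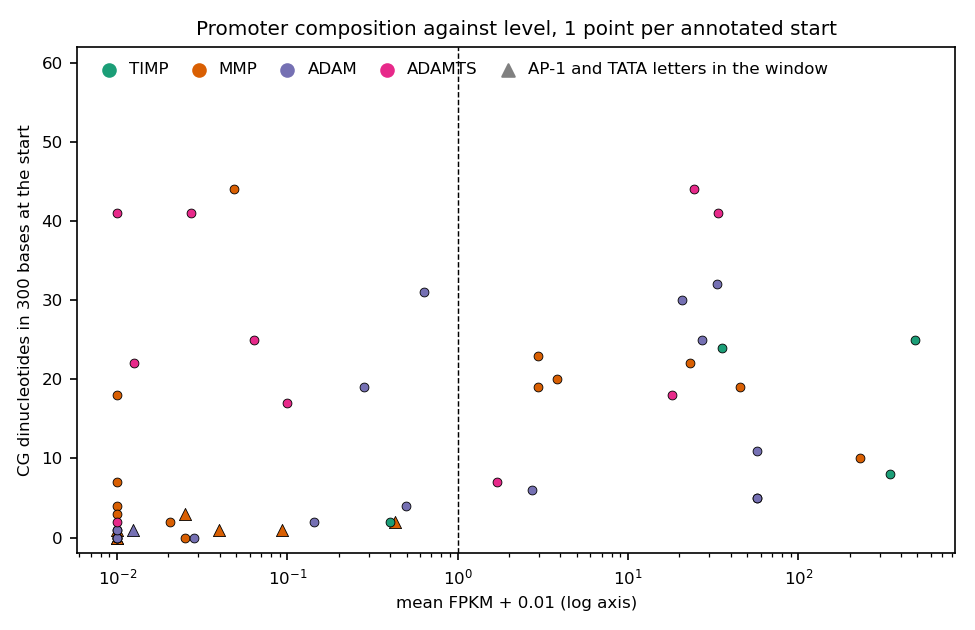
CG dinucleotides in the 300 bases around each annotated start against the mean FPKM of the gene plus 0.01, on a log axis, for the 53 starts of 48 members, with triangles for windows that hold both AP-1 and TATA letters. All 8 triangles lie left of the dashed line at a mean of 1 FPKM, with 0 to 3 CG dinucleotides. Of these, 7 belong to the related MMP genes of the chromosome 9 run and 1 to *Adam29*. The members under 1 FPKM outside that run had both in 1 of 21 windows.

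Members under 1 FPKM were counted apart, as their ratios rest on little signal. *Adamts8*, a neighbor of *Adamts15* on chromosome 9 that cuts aggrecan, stood at 0.541 and 0.734 FPKM, *Adam23*, an ADAM without protease activity, at 0.684 and 0.558 FPKM, and *Adam1a*, a sperm-lineage gene in mouse, at 0.618 and 0.360 FPKM. Both of the remaining groups were lower still, with 22 members above 0 in at least 1 library and under 0.5 FPKM in each, and 24 at 0 in both. Among these low genes, *Adam11* (0.325 and 0.0872 FPKM), *Adam22* (0.350 and 0.196 FPKM), *Adam1b* (0.192 and 0.0736 FPKM), *Adamts9* (0.0943 and 0.0134 FPKM), *Mmp9* and *Adam1a* had a ratio of at least 1.5 toward siNC after 0.1 FPKM was added, and 0 members had one toward si*Malat1*. These are 6 and 0 of the 49 members above 0 in both libraries, beside 3.22% and 3.6% of 15080 such genes of the table. All 6 had means under 1 FPKM, while these shares are over genes of every level. At a mean of at least 1 FPKM the shares were 1.75% lower and 2.29% higher, so genes under it pass this ratio more often. The addition of 0.1 FPKM weighs most on the lowest genes. Without it 8 members were lower by this ratio, with *Adam4* and *Mmp3* besides, and 3 were higher, namely *Adam32*, *Mmp24* and *Mmp13*, beside 8.01% and 8.28% of all genes. Apart from *Adam1a*, these low genes were named after their values were seen. *Mmp9* and *Mmp12* are typical of leukocytes, whose markers were scarce, with 7 of 8 under 1 FPKM on average, *Emr1* listed at 0 in both libraries and *Ptprc* at 0.00227 and 0.00495 FPKM. Summed leukocyte markers were 7.18 and 5.67 FPKM, mostly *Cd14* (5.80 and 4.84 FPKM) and *Cd68* (1.005 and 0.592 FPKM), and their part in the values of *Adam8* was not tested. Endothelial markers were under 1 FPKM in 5 of 5 cases, with sums of 0.0695 and 0.0888 FPKM, and *Cdh5* and *Pecam1* were the highest.

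Genes that activate the proteases or work beside them were read from lists of textbook partners. The plasminogen activator system, whose product plasmin can activate several MMPs, had less FPKM in si*Malat1* in 5 of 5 genes under each scaling, with a median log2 ratio of -0.34, and 0 of the 5 reached a ratio of 1.5. The urokinase gene *Plau* stood at 218 and 166 FPKM (log2 ratio -0.39), its receptor gene *Plaur* at 20.6 and 16.0 FPKM (-0.37) and the tissue activator gene *Plat* at 55.1 and 43.5 FPKM (-0.34). Each of these differences was wider than that of *Mmp2* or *Mmp14*. Plasminogen itself, *Plg*, was listed at 0 in siNC and at 0.00498 FPKM in si*Malat1*. Of the procollagen C-proteinase *Bmp1* and its enhancers, 3 of 3 were lower under each scaling, *Bmp1* at 128 and 105 FPKM (-0.29), *Pcolce* at 629 and 558 FPKM (-0.17) and *Pcolce2* at 14.4 and 11.3 FPKM (-0.35). Of the amino-terminal trimming genes, *Adamts2* (-0.30) was on the lower side as well, while *Adamts14* (0.06) lay near 0. Among the proprotein convertases, which cut the prodomains of membrane-type MMPs, ADAMs and ADAMTS enzymes, *Furin* stood at 73.4 and 67.4 FPKM (-0.12). *Pcsk7*, which shares its locus with other genes, stood at 14.5 and 14.1 FPKM (-0.04). *Pcsk6* stood at 1.501 and 0.798 FPKM (-0.83), the 1 gene of these partner lists past a ratio of 1.5.

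Membrane regulators of MMPs were mixed, with 5 of 7 lower and a median log2 ratio of -0.12. *Cav1* stood at 77.3 and 56.9 FPKM (-0.44), the hyaluronan receptor gene *Cd44*, which docks MMPs at the surface, at 230.1 and 182 FPKM (-0.34), *Itgav* at 20.6 and 17.7 FPKM (-0.22), and *Bsg*, which induces MMPs in neighboring cells, at 452 and 493 FPKM (0.13), with *Itgb1* at 278 and 291 FPKM. Partners of Adam10 and Adam17 split evenly, 4 of 8 on each side as deposited, with *Frmd8*, which stabilizes the iRhom and Adam17 complex, at 30.3 and 23.2 FPKM (-0.38), the tetraspanin *Tspan33* at 2.66 and 3.27 FPKM (0.29), the iRhom gene *Rhbdf1* at 53.7 and 44.4 FPKM (-0.27) and *Tspan14* at 77.4 and 77.8 FPKM (0.01). Scaling each library to the same FPKM sum left 7 of the 8 on the lower side. Of 14 genes for proteins that ADAMs shed, 11 were lower, 10 to 12 over the scalings, and the median log2 ratio was -0.21. The Notch ligand *Dll1* stood at 9.99 and 7.02 FPKM (-0.50), the chemokine *Cx3cl1* at 24.6 and 19.4 FPKM (-0.34), the adhesion molecule *Ncam1*, which shares its locus with another gene, at 171 and 220.1 FPKM (0.36) and *App* at 441 and 432 FPKM (-0.03).

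Matrix substrates lay on both sides of 0, with 4 of 7 lower and a median log2 ratio of -0.13. The proteoglycan *Bgn* stood at 1306 and 1387 FPKM (0.09), *Thbs1* at 362 and 331 FPKM (-0.13), *Fbln1* at 27.7 and 24.1 FPKM (-0.20), *Fbn1* at 66.3 and 74.4 FPKM (0.17) and tenascin, *Tnc*, at 32.1 and 22.3 FPKM (-0.52). Versican, *Vcan*, the substrate of *Adamts1*, *Adamts4*, *Adamts5* and *Adamts15*, stood at 30.4 and 32.0 FPKM. Aggrecan, *Acan*, was listed at 0 in siNC and at 0.0146 FPKM in si*Malat1*. ADAMTS-like genes, which encode relatives of ADAMTS enzymes without a protease domain, were lower for 5 of 6 genes as deposited and for 4 of 6 with median centering or upper quartile scaling, with *Adamtsl5* at 62.9 and 60.0 FPKM (-0.07), *Adamtsl4* at 7.50 and 5.45 FPKM (-0.45), *Adamtsl3* at 5.88 and 4.63 FPKM (-0.34) and *Adamtsl2* at 2.94 and 3.67 FPKM (0.31). Meprins and the related metzincins, 5 genes, all lay under 1 FPKM, with *Pappa2* (0.474 and 0.690 FPKM) and *Pappa* (0.146 and 0.238 FPKM) the highest. The alpha-2-macroglobulin group, 3 genes, was listed at 0 apart from *Pzp* (0.00635 FPKM with siNC).

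**Figure D4:**
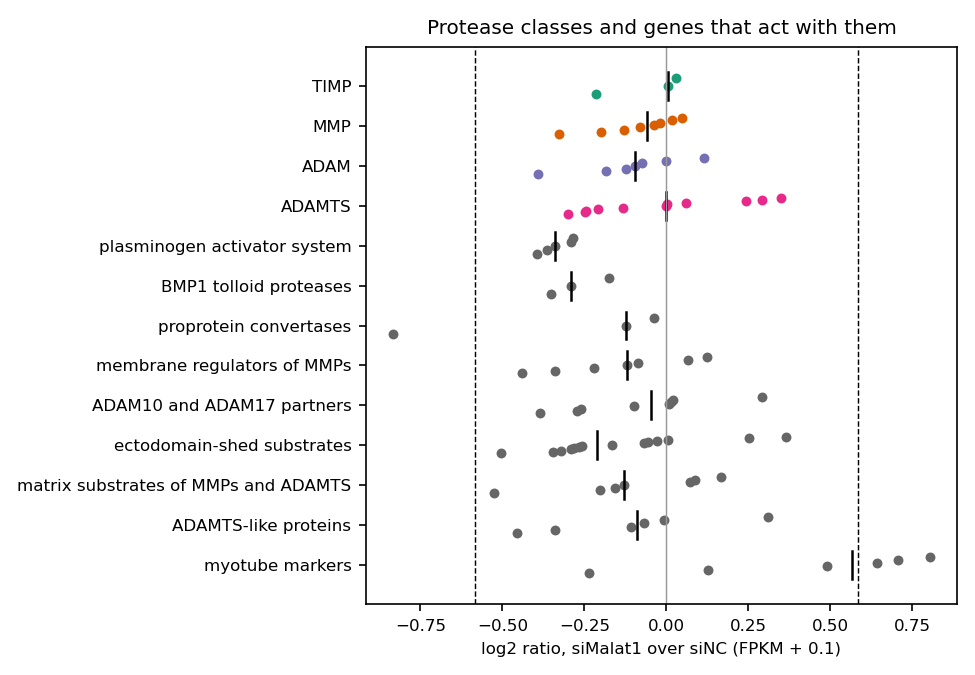
Log2 ratio of si*Malat1* over siNC for each gene with a mean of at least 1 FPKM, by protease class and partner list, with a black bar at the median and dashed lines at a ratio of 1.5 in either direction. The protease classes center near 0, the 5 genes of the plasminogen activator system lie between -0.39 and -0.29, and the myotube markers reach 0.81.

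Myotube markers were higher for 5 of 6 genes, 3 of them by a ratio of at least 1.5. The myogenic factor gene *Myog* stood at 525 and 857 FPKM, the embryonic myosin gene *Myh3* at 304 and 531 FPKM and the skeletal actin gene *Acta1* at 3326 and 5199 FPKM. *Ckm* stood at 112 and 157 FPKM and *Des* at 1652 and 1805 FPKM, log2 ratios of 0.49 and 0.13, whereas *Myod1* was on the lower side, at 113 and 95.8 FPKM, a log2 ratio of -0.23. For the list as a whole the median log2 ratio was 0.57. The part of these markers in the values of the proteases was not tested. Of 6 fibroblast markers, *Dcn* (281 and 252 FPKM) and *Col1a1* (173 and 144 FPKM) were abundant, *Lum* stood at 10.3 and 14.3 FPKM and *Pdgfra* at 6.45 and 7.52 FPKM, and *Tcf21* was listed at 0 in both. The part of the fibroblast markers was not tested either. All members together held 0.390% of the summed FPKM in siNC and 0.366% in si*Malat1*.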

How the data were processed

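Members and gene lists were chosen with earlier results of these data known. By the authors' methods and the submitters' notes, paired reads of 50 bp were mapped to mm9 with TopHat2 2.0.9, and the deposited FPKM came from Cufflinks 2.1.1 and Cuffdiff 2.1.1. The annotation and the strand setting are not given in the sources used here. The deposited table also holds the authors' natural log ratios and calls at a q-value of 0.05, and neither was used. It carries no counts, so the depth behind a value is unknown. Of 1937 genes at a mean of at most 0.1 FPKM, 457 had ratios that are 1.09 times a ratio of whole numbers up to 5, within 0.004 on the natural log scale, against a median of 59 for other factors. Locus starts were raised by 1, since 6044 of 16386 single-gene loci then equal the RefSeq gene length, against 414 as given.

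The log2 of FPKM plus 0.1 was compared between the libraries, with no test, and a pseudocount understates the change of low genes. An exact 0 may be an estimate that failed, so genes at 0 in a library have no ratio. Ratios of 1.5 served as a rule of size. Named genes are all expressed members (mean of 1 FPKM or more), members reaching 0.5 FPKM in a library, and, of each list, the 3 with the widest log2 ratios at a mean of 1 FPKM or more and the 2 most abundant above 0, besides genes of shared loci, other markers and low members named after values were seen. *Plgrkt* of the lists did not match the table. Promoter windows came from RefSeq (GRCm38.p6), a later build than mm9, and no coordinates were carried between builds. Values were computed with pandas 2.3.3 and numpy 2.4.6 under Python 3.11.15, plotted with matplotlib 3.10.9, and the code was tested on simulated tables.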

Additional observations from a re-analysis of the deposited data

How the results depend on the processing

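No paired analysis was possible because there is 1 library per oligo. With pseudocounts of 0.01 and 1 FPKM, with a common FPKM sum, with centering on the median of all genes, with upper quartile scaling and with mean limits of 5 and 0.5 FPKM, 0 members reached a ratio of 1.5 in either direction. A ratio of 2 gave 0, and a larger value at least 25% above the smaller gave 1 member higher and 2 lower. With no limit on the mean, 6 of 49 members were lower and 0 higher, beside 3.22% and 3.6% of 15080 genes. All of these members were under 1 FPKM, while the shares are over genes of every level. In alternatives chosen after seeing the data, no limit gave 6 lower and 1 higher with 0.01 FPKM added, beside 6.77% and 7.03% of genes, and 8 lower and 3 higher with nothing added, beside 8.01% and 8.28%. The median log2 ratio of the members lay between -0.13 with a common FPKM sum and -0.04 with centering. That of all genes moved as well, to -0.09 with a common FPKM sum and to 0, by design, with centering. With upper quartile scaling the medians were -0.06 for the members and -0.02 for all genes. Of the 29 members, 24 were lower with a common FPKM sum, 16 with centering and 17 with upper quartile scaling, against 19 as deposited. As deposited 57.4% of all genes were lower, and their share was not computed under the other scalings. Leaving out members at shared loci gave -0.08 over 24 genes and no TIMP value, since all 4 TIMPs share a locus. The pseudocount of 1 FPKM moved single log2 ratios by at most 0.12. With 1 library per oligo, low FPKM limit the ratios of members under 1 FPKM most.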
